A study of Mus musculus with 16 samples.

Results

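The 10 genes described here make, fold and crosslink collagen: the prolyl 4-hydroxylase subunits P4ha1, P4ha2 and P4ha3, the lysyl hydroxylases Plod1 and Plod2, the collagen chaperone Serpinh1, and the lysyl oxidases Lox, Loxl1, Loxl2 and Loxl3. They were chosen by symbol, with earlier results of these data known. They are 10 of the 24982 entries of the count table, and all 10 were tested. The study concerned talin, the adaptor protein that couples integrins to actin, in the fibroblasts of the pressure-loaded heart. Left ventricles of 16 C57BL/6 mice, 1 RNA library per mouse, were sequenced.

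The KO group held 8 mice, 4 males and 4 females, that lacked Tln2 and had Tln1 deleted in cardiac fibroblasts. The Tln2-null group held 8 mice, 4 males and 4 females, that lacked Tln2 only. Both groups had 5 days of intraperitoneal tamoxifen, a rest of 2 weeks and then 8 weeks of angiotensin II (AngII), a pressor and pro-fibrotic peptide, delivered by osmotic pump. Because every mouse was Tln2-null and AngII-treated, KO over Tln2-null compares mice with and without the Tln1 deletion on this background, and wild-type or untreated levels were not analysed here. The sources used here do not name the promoter that drove the Cre.

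Procollagen chains are modified in the endoplasmic reticulum (ER) before they fold. Prolyl 4-hydroxylases stabilise the triple helix, lysyl hydroxylases prepare the sites of later crosslinks, and the chaperone encoded by Serpinh1 (HSP47) holds the folded procollagen until it leaves the ER. Outside the cell, copper-dependent lysyl oxidases oxidise lysines of collagen and elastin so that neighbouring molecules become covalently joined. In the heart these steps occur largely in fibroblasts, and crosslinked collagen is associated with a stiff ventricle.

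Total counts were 11161766 to 19221673 in KO mice and 14159641 to 19008552 in Tln2-null mice, so 3 counts, the limit that a count of 0 allows, stood for 0.156 to 0.269 CPM (a gene's count scaled to 1000000 counts per library). All 8 listed cardiomyocyte markers were detected, and their summed level was 42238 to 50180 CPM (median 48978) in KO mice and 43176 to 48432 CPM (median 45238) in Tln2-null mice. Tln1 averaged 274 ± 31.3 CPM in KO mice and 289 ± 20.7 CPM in Tln2-null mice (SD, n = 8 each), and its log2 fold change was -0.08 with an SE of 0.07 (adjusted p = 0.942, edgeR). The deletion was confined by design to 1 cell type of a mixed tissue, and Tln2 was counted at 67.1 ± 2.32 CPM in KO mice and 66.8 ± 7.25 CPM in Tln2-null mice, so neither talin gene checks the labels in these counts. In 4 of 8 females, KO replicates 3, 5 and 7 and Tln2-null replicate 4, Y-linked reads passed 1 percent of the male mean. In bulk tissue, fewer cells of a type and less RNA per cell cannot be told apart.

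The 4 lysyl oxidases stood lower in KO ventricles, by log2 fold changes of -0.31 to -1.11 and each at an unadjusted p under 0.05. Plod1, Plod2, P4ha1 and P4ha2 lay within 0.10 log2 units of the Tln2-null level, and Serpinh1 lay between at -0.17. P4ha3, at -1.13, was close to the limit of detection. Adjusted over all 13775 genes tested, none of the 10 passed the threshold of 0.05, and 0.0% of all genes did (700 had an unadjusted p under 0.05). At an unadjusted p under 0.05, 4 of the 10 were lower and none was higher, against 3.17% of all genes lower and 1.92% higher. Of the 10, 9 had a negative log2 fold change, against 51.2% of all genes, and their median was -0.24, against -0.00 over all genes. Because the 10 were chosen with earlier results of these data known, these shares are a description and not an independent test. In no gene were the 2 genotypes' ranges of CPM separate, as they were in 0.0436% of genes tested.

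**Figure D1:**
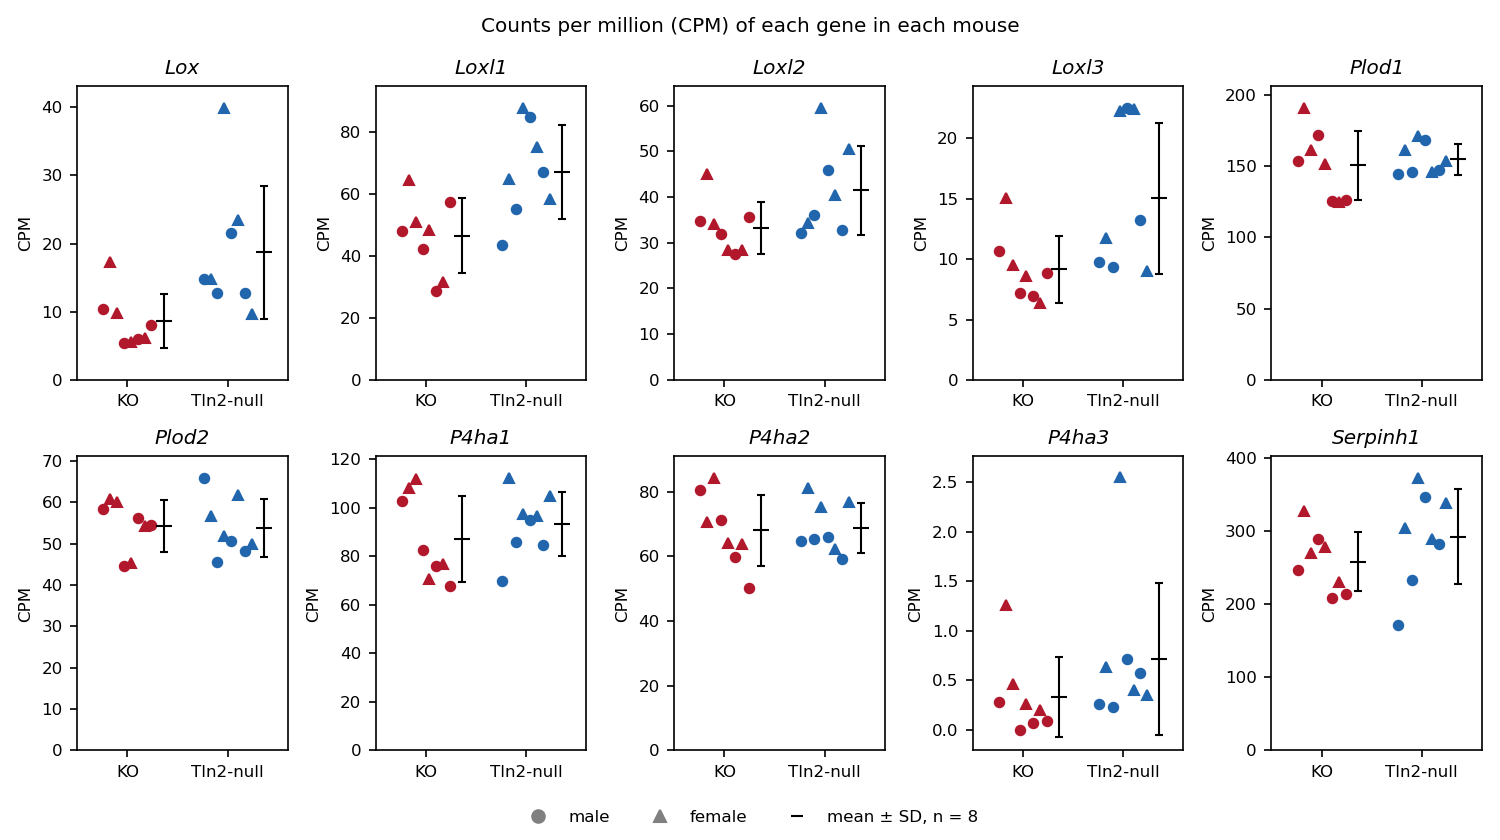
Level of each gene in each mouse, in CPM, with KO mice left and Tln2-null mice right of each panel. Circles are males, triangles females, and the black bar at the right of each group is the mean ± SD of 8 mice. KO mice sit towards the low end for Lox, Loxl1, Loxl2 and Loxl3, while the groups overlap around the same level for Plod1, Plod2, P4ha1 and P4ha2, with KO mice more widely spread for Plod1.

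Per kilobase of exon, Serpinh1 was the most abundant of the 10 at 113 ± 22.7 CPM per kilobase (SD over 16 mice), above all the others in 16 of 16 mice and above 96.8% of the genes tested. Plod1 at 22.6 ± 2.70 and P4ha1 at 21.9 ± 3.73 CPM per kilobase came next, and their order was not fixed, since Plod1 was the higher in 10 of 16 mice. Loxl1, the most abundant lysyl oxidase, followed at 17.2 ± 5.14 CPM per kilobase. P4ha2 at 10.97 ± 1.48 and Plod2 at 10.03 ± 1.19 CPM per kilobase were again near neighbours, with P4ha2 the higher in 12 of 16 mice. Loxl2 reached 6.91 ± 1.63 CPM per kilobase, and P4ha3 was last at 0.167 ± 0.199. Lox (2.86 ± 1.86 CPM per kilobase) and Loxl3 (2.63 ± 1.21 CPM per kilobase) changed places with genotype: Lox was the higher of the pair in 1 of 8 KO mice and in 6 of 8 Tln2-null mice. That change of order was not tested, and some Loxl3 counts may belong to the overlapping gene Htra2.

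The α subunit encoded by P4ha1 carries the catalytic site of the main prolyl 4-hydroxylase, and P4ha2 encodes that of a second isoenzyme. In hypoxia P4ha1, P4ha2, Plod1 and Plod2 are known targets of the factor HIF-1, whose core motif contains ACGTG or GCGTG. Below are the promoters of the 2 pairs of genes that went together most closely among the hydroxylases and Serpinh1 (values given further on), P4ha1 with P4ha2 and Plod1 with Serpinh1. Each runs 5′ to 3′ on the gene's own strand, from 250 bases before to 50 bases after the RefSeq start, on GRCm38.p6, with ACGTG on either strand in capitals. P4ha1 is at chr10:59323046-59323345 on the plus strand, P4ha2 at chr11:54100674-54100973 on the plus strand, Plod1 at chr4:147936727-147937026 on the minus strand and Serpinh1 at chr7:99353190-99353489 on the minus strand.
P4ha1: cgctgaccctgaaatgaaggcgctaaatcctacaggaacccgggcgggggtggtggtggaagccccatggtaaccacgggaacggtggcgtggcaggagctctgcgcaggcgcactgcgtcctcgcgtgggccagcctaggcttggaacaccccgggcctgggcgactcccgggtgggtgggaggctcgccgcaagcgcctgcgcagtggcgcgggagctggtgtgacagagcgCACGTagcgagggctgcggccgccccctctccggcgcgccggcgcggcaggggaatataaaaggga
P4ha2: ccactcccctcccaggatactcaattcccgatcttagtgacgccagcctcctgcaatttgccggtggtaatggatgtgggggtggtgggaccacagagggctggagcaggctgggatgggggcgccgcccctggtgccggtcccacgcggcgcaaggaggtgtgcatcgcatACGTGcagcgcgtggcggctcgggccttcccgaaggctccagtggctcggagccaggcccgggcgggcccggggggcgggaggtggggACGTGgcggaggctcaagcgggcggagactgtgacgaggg
Plod1: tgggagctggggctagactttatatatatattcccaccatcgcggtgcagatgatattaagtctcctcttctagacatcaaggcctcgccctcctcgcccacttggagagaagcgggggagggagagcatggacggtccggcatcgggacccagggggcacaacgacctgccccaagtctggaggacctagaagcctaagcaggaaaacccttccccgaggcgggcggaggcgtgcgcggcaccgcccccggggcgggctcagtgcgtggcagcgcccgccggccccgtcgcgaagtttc
Serpinh1: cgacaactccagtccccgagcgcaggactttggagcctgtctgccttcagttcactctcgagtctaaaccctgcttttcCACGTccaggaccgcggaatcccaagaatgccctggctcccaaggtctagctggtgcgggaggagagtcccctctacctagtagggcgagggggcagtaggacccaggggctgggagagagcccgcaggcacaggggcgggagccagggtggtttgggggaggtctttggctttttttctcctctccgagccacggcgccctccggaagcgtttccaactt
The promoter sequences are RefSeq's, and 5 of the 10 genes were matched, these 4 and P4ha3; promoters of Lox, Loxl1, Loxl2, Loxl3 and Plod2 were not used here. ACGTG occurred 1 time in P4ha1, 2 times in P4ha2 and 1 time in Serpinh1, and 0 times in Plod1 and P4ha3. GCGTG, whose matches can share at most 1 base with those of ACGTG, occurred 2 times each in P4ha1, P4ha2 and Plod1, and 0 times in Serpinh1 and P4ha3. Of 32851 promoters of the same 300 bases, 19.6% held ACGTG and 32.4% held GCGTG, on either strand, so both are common strings and a match describes the letters only.

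P4ha1 (chromosome 10, 59323296 to 59373304, GRCm38, GENCODE M21) measured 67.9, 79.8 and 112.0 CPM (lowest, median, highest) in KO mice and 70.0, 95.9 and 112.2 CPM in Tln2-null mice. The groups overlapped over almost their whole range, with the KO mice split between 3 high and 5 lower ones. Its log2 fold change was -0.09 ± 0.10 (SE), with a 95% interval of -0.31 to 0.12 (adjusted p = 0.946). P4ha2 (chromosome 11, 54100095 to 54131665) measured 50.3, 67.4 and 84.1 CPM in KO mice and 59.2, 65.6 and 81.0 CPM in Tln2-null mice. The 4 KO mice above and the 4 below the Tln2-null median left its log2 fold change at -0.01 ± 0.09, with a 95% interval of -0.20 to 0.17. P4ha3 (chromosome 7, 100285520 to 100319699), another α subunit, was barely detected, with 0 to 25 counts in KO mice and 4 to 40 counts in Tln2-null mice. Its levels were 0, 0.235 and 1.26 CPM in KO mice and 0.233, 0.486 and 2.56 CPM in Tln2-null mice. In each group 1 female stood apart at the top, and most of the other values lay within a few counts of the detection limit. The log2 fold change of P4ha3 was -1.13 ± 0.54, with a 95% interval of -2.27 to 0.01 (adjusted p = 0.935). It was -0.58 without Tln2-null replicate 4 and -1.75 without KO replicate 2, the females at the top of each group.

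Plod1 (chromosome 4, 147909753 to 147936767), which hydroxylates lysines in the helical part of collagen, measured 125, 153 and 191 CPM in KO mice and 145, 151 and 171 CPM in Tln2-null mice. KO mice were spread over both sides of the narrower Tln2-null range, with 3 of them below its lowest mouse. The log2 fold change was -0.04 ± 0.08, with a 95% interval of -0.21 to 0.13 (adjusted p = 0.974). Plod2 (chromosome 9, 92542223 to 92608428), which hydroxylates telopeptide lysines and so favours the stable pyridinoline crosslinks of fibrotic tissue, measured 44.6, 55.5 and 60.8 CPM in KO mice and 45.6, 51.3 and 65.9 CPM in Tln2-null mice. The 2 groups overlapped over most of their range, with 2 KO mice below every Tln2-null mouse and 2 Tln2-null mice above every KO mouse, and 6 of 8 KO mice were above the Tln2-null median. Plod2 was the 1 gene of the 10 with a positive log2 fold change, 0.01 ± 0.08, with a 95% interval of -0.17 to 0.19 (adjusted p = 0.995). On the linear scale these 95% intervals ran from 0.864 to 1.10 times the Tln2-null level for Plod1 and from 0.890 to 1.14 times for Plod2.

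Serpinh1 (chromosome 7, 99345376 to 99353239) measured 209, 259 and 327 CPM in KO mice and 172, 297 and 373 CPM in Tln2-null mice. The lowest of all 16 mice was a Tln2-null male, but 7 of 8 KO mice were below the Tln2-null median. The log2 fold change was -0.17 ± 0.12, with a 95% interval of -0.42 to 0.08 (adjusted p = 0.935). Serpinh1 is a heat-inducible gene, and 1 library, Tln2-null replicate 5, had 85.9 CPM of Hspa1a and 53.1 CPM of Hspa1b, against at most 8.91 and 5.91 CPM in the other 15. Without that library the log2 fold change of Serpinh1 was -0.10 ± 0.11. Without Tln2-null replicate 1, the low male, it was -0.24 (unadjusted p = 0.019). Among the fits that leave out 1 mouse, Loxl1 (-0.45) and Loxl3 (-0.56) were also nearest 0 without Tln2-null replicate 5. The part of heat shock in the Serpinh1 values was not tested.

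Lox (chromosome 18, 52516067 to 52529867), the first described lysyl oxidase of fibrillar collagen and elastin, measured 5.40, 7.17 and 17.3 CPM in KO mice and 9.69, 14.7 and 39.9 CPM in Tln2-null mice. Of the KO mice, 5 lay below every Tln2-null mouse and 3 within the Tln2-null range, and 3 Tln2-null mice lay above every KO mouse. The means were 8.61 ± 3.99 CPM in KO mice and 18.7 ± 9.73 CPM in Tln2-null mice (SD, n = 8 each). The log2 fold change was -1.11 ± 0.27, with a 95% interval of -1.69 to -0.54, an unadjusted p of 0.00074 and an adjusted p of 0.375, the 22nd smallest p of all genes. On the linear scale that is 0.463 times the Tln2-null level (95% interval 0.311 to 0.690).

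Loxl1 (chromosome 9, 58287738 to 58313186), which is needed in mice to renew elastic fibres, measured 28.7, 48.2 and 64.4 CPM in KO mice and 43.6, 65.9 and 87.7 CPM in Tln2-null mice. All 8 KO mice were below the Tln2-null median, and 5 Tln2-null mice were above every KO mouse. Its log2 fold change was -0.53 ± 0.16, with a 95% interval of -0.86 to -0.20 (unadjusted p = 0.00369, adjusted p = 0.664). Loxl2 (chromosome 14, 69609068 to 69695834), which crosslinks basement membrane collagen IV and has been linked to interstitial fibrosis of the stressed heart, measured 27.6, 33.0 and 45.1 CPM in KO mice and 32.2, 38.3 and 59.5 CPM in Tln2-null mice. The groups overlapped in the middle, with 4 KO mice under the lowest Tln2-null mouse and 1 KO female well above the other 7. Its log2 fold change was -0.31 ± 0.12, with a 95% interval of -0.57 to -0.05 (unadjusted p = 0.0222, adjusted p = 0.916).

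Loxl3 (chromosome 6, 83034173 to 83052562), a lysyl oxidase needed in mice for palate and spine development, measured 6.35, 8.71 and 15.1 CPM in KO mice and 8.98, 12.5 and 22.5 CPM in Tln2-null mice. The Tln2-null mice formed a group of 3 near the top value and 5 lower ones, and only those 3 were above every KO mouse. Its log2 fold change was -0.71 ± 0.23, with a 95% interval of -1.19 to -0.24 (unadjusted p = 0.00579, adjusted p = 0.755). Of the Loxl3 exon bases, 535 (11.6%) overlap Htra2 on the opposite strand, and the sources used here do not say whether the counting used strand, so some Loxl3 counts may belong to Htra2. Htra2 had 8109 counts summed over all libraries, and Loxl3 had 93 to 406 counts per library.

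**Figure D2:**
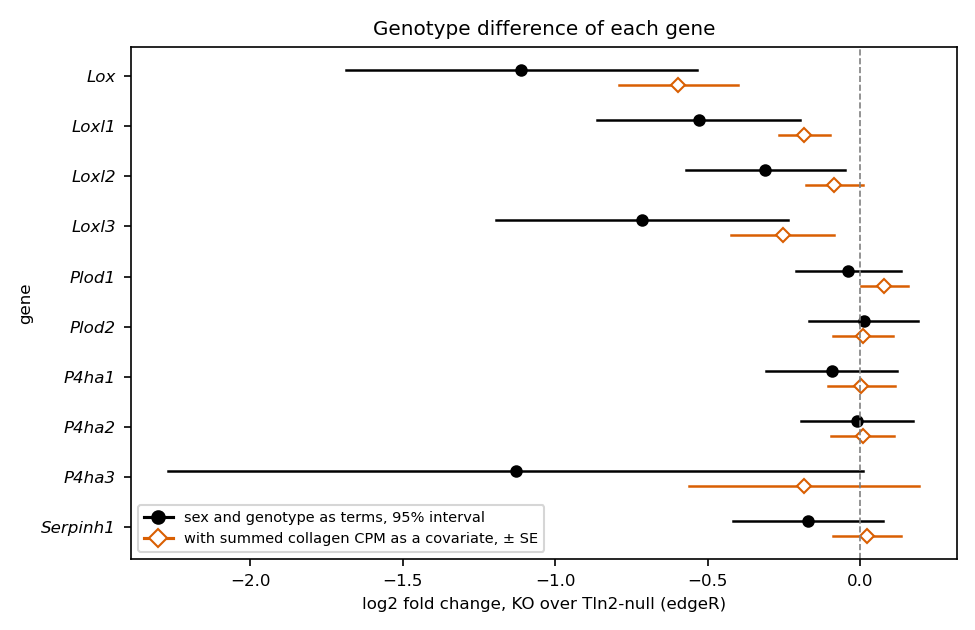
Log2 fold change of KO over Tln2-null for each gene. Black circles are the fit with sex and genotype as terms, with 95% intervals, and open orange diamonds add the summed collagen level as a covariate, with SE. The black intervals of the 4 lysyl oxidases lie below 0 and those of the other 6 genes cross it. With the covariate Lox stands at -0.60 and the estimates of the other genes lie nearer 0 than that of Lox. Plod1 stands at 0.08 with the covariate and at -0.04 without it.

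Markers of several cell types were set beside these differences. Over all genes tested, 3.17% were lower and 1.92% higher at an unadjusted p under 0.05. All 10 listed fibroblast markers had a negative log2 fold change (median -0.38), 8 at an unadjusted p under 0.05, and their summed level was 2037 to 2917 CPM (median 2379) in KO mice and 2486 to 3537 CPM (median 3015) in Tln2-null mice. All 8 markers of activated fibroblasts had a negative one too (-1.87 to -0.06, median -1.20), 5 at an unadjusted p under 0.05, with summed levels of 113 to 630 CPM (median 229) in KO mice and 171 to 867 CPM (median 423) in Tln2-null mice. The 6 smooth muscle markers all had a negative one (median -0.30), 2 at an unadjusted p under 0.05, and summed to 384 to 714 CPM in KO mice and 450 to 959 CPM in Tln2-null mice. In the other direction, all 8 cardiomyocyte markers had a positive log2 fold change (median 0.07), 2 at an unadjusted p under 0.05, Ryr2 at 0.15 ± 0.06 and Pln at 0.16 ± 0.07. Of 6 pericyte markers 3 were positive and 3 negative (median 0.01); at an unadjusted p under 0.05 Abcc9 stood at 0.17 ± 0.07, Rgs5 at 0.13 ± 0.06 and Cspg4 at -0.34 ± 0.11. The 3 tested of 6 atrial markers were negative, with Dkk3 at -1.30 ± 0.35 (adjusted p = 0.421). The list summed to 296 to 1246 CPM (median 776) in KO mice and 432 to 1957 CPM (median 1134) in Tln2-null mice. Nppa alone was 290 to 1230 CPM in KO mice and 421 to 1899 CPM in Tln2-null mice. The sum therefore mostly follows 1 gene and does not measure atrial tissue. Of 7 endothelial markers 3 were negative and 4 positive (median 0.01), none at an unadjusted p under 0.05. Of 7 macrophage markers 3 were negative and 4 positive (median 0.02), 1 of them lower at such a p. The 4 tested of 6 valve and cartilage markers were negative (median -0.21), none at such a p. No marker of these lists was at 0 in all mice. Lymphocyte, erythroid, adipocyte, mesothelial and skeletal muscle lists were also looked at, none with a gene at such a p. None of these markers passed after adjustment in edgeR, while DESeq2 called 1 of the fibroblast markers (Tcf21). The part of cell makeup in the lysyl oxidase values was not tested. With the 4 females that had Y-linked reads left out, which keeps 1 KO female and 3 Tln2-null females, Lox alone of the 10 kept an unadjusted p under 0.05, at -0.68 ± 0.26 (adjusted p = 0.994). Loxl1 was then at -0.37 ± 0.18, Loxl3 at -0.47 ± 0.27 and Loxl2 at -0.10 ± 0.12. The KO female kept, replicate 2, had the highest Lox level of the KO mice (17.3 CPM). Tln2-null replicate 4, left out, had the highest of the Tln2-null mice (39.9 CPM). The part of Y-linked reads in these values was not tested.

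The lysyl oxidase difference had the same sign in both sexes. In males, 3 of the 10 genes were lower at an unadjusted p under 0.05, against 3.3% of all genes: Lox at -1.05 ± 0.40, Loxl1 at -0.51 ± 0.23 and Loxl3 at -0.71 ± 0.34. In females, 4 were lower, against 1.92% of all genes: Lox at -1.17 ± 0.39, Loxl1 at -0.55 ± 0.23, Loxl2 at -0.44 ± 0.17 and Loxl3 at -0.72 ± 0.33. None passed after adjustment (adjusted p of at least 0.775 in males and 0.9998 in females), as in 0.0% of all genes in either sex. These counts rest on few mice. In males the count of 3 became 0 without Tln2-null replicate 5 or KO replicate 4, and 1 without Tln2-null replicate 7 or KO replicate 6. In females the count of 4 became 0 without Tln2-null replicate 4, 1 without KO replicate 5 or 7, and 2 without Tln2-null replicate 6. The test of the difference between the sexes gave 0 genes of the 10 at an unadjusted p under 0.05, against 4.27% of all genes. For Lox the male effect minus the female effect was 0.12 ± 0.56, with a 95% interval of -1.06 to 1.30, wide enough to hold a difference as large as the genotype effect itself.

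All 10 genes had a negative log2 fold change of male over female, as had 49.6% of all genes, but none passed after adjustment (adjusted p = 0.9998 for each), where 0.0871% of all genes did. At an unadjusted p under 0.05, 3 were lower, against 2.04% of all genes. P4ha1 stood at -0.23 ± 0.10, Serpinh1 at -0.27 ± 0.12 and P4ha3 at -1.48 ± 0.55 on the log2 scale, male over female. That count of 3 became 1 without any one of Tln2-null replicates 1, 3 and 4 and KO replicates 2, 6 and 8.

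Within a genotype and sex, the 10 genes did not vary as 1 block. Of 45 pairs, 12 were correlated over the 16 mice after each gene's log2 CPM was centred within genotype and sex (adjusted permutation p under 0.05). The 6 pairs of lysyl oxidases had r of 0.60 to 0.87, and 4 of them passed. Lox with Loxl2 (r = 0.68) and Loxl2 with Loxl3 (r = 0.60) did not, and without the 2 farthest mice their r was 0.40 and 0.42. Lox and Loxl3 went together most closely (r = 0.87, permutation p = 0.00017, adjusted 0.00382; rho = 0.82, p = 0.00091, adjusted 0.0103; r = 0.84 without the 2 farthest mice). P4ha1 and P4ha2 formed another pair (r = 0.75, permutation p = 0.00254, adjusted 0.0229; rho = 0.76, p = 0.00092, adjusted 0.0103; r = 0.69 without the 2 farthest mice). Plod1 went with Serpinh1 (r = 0.73, permutation p = 0.00017, adjusted 0.00382; rho = 0.89, p = 0.00017, adjusted 0.00382; r = 0.66 without the 2 farthest mice). Plod2 was correlated with none of the other 9 at an adjusted p under 0.05, and its lowest r was -0.50, with Serpinh1 (permutation p = 0.126, adjusted 0.214; rho = -0.43, p = 0.151, adjusted 0.242).

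**Figure D3:**
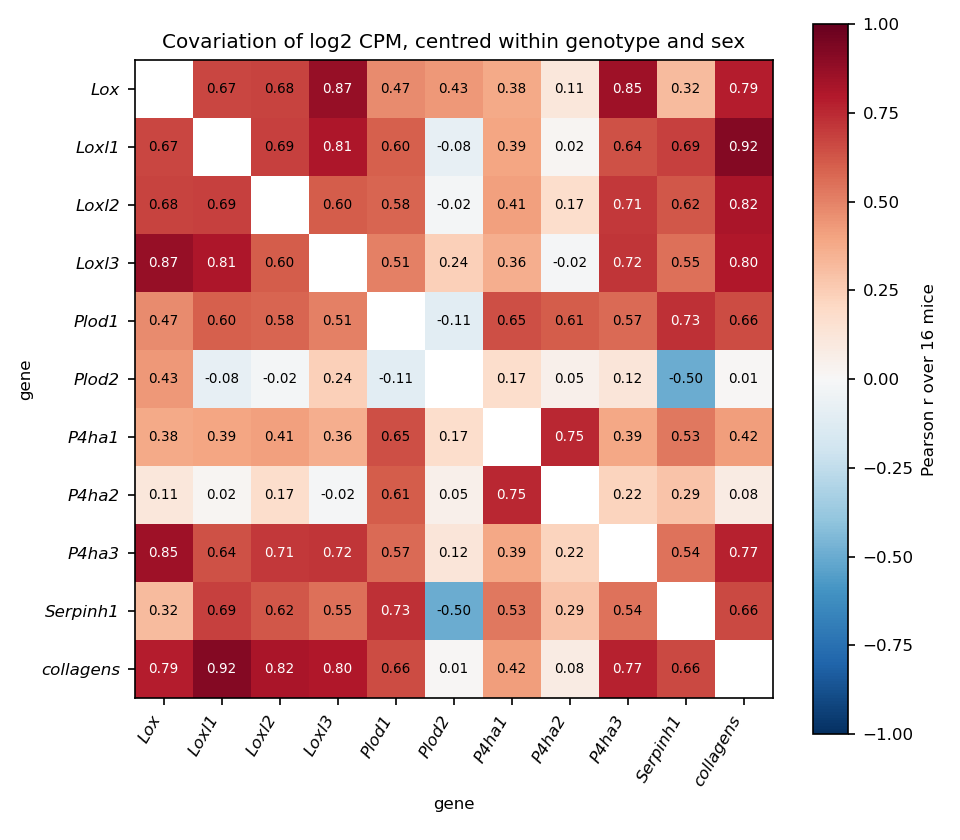
Pearson r of each pair of genes, and of each gene with the summed level of Col1a1, Col1a2 and Col3a1 (collagens), over 16 mice after centring log2 CPM within genotype and sex. Red is positive and blue negative. The lysyl oxidases form a red block of 0.60 to 0.87 with P4ha3 beside them, P4ha1 and P4ha2 pair at 0.75, and Plod2 is near 0 with most others. The block is 0.40 to 0.84 without the 2 mice farthest from the median of the first gene of each pair.

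The substrates of these enzymes were set beside them as the summed level of Col1a1, Col1a2 and Col3a1, which was 288, 528 and 1085 CPM (lowest, median, highest) in KO mice and 494, 721 and 1314 CPM in Tln2-null mice. Loxl1 followed this sum almost mouse by mouse (r = 0.92, rho = 0.95, permutation p = 1e-05 for each, the smallest that the permutations can give; adjusted p = 1e-04 for each over the 10 genes; r = 0.91 without the 2 farthest mice). Loxl2 (r = 0.82), Loxl3 (0.80), Lox (0.79) and P4ha3 (0.77) followed it as well, with adjusted permutation p of 0.0004 to 0.00456, and rho of 0.74 to 0.85 with adjusted permutation p of 0.001 to 0.00622. Serpinh1 (r = 0.66, rho = 0.70) and Plod1 (r = 0.66, rho = 0.69) passed at adjusted permutation p of 0.0103 and 0.044 for r and 0.014 and 0.016 for rho, but the r of Plod1 was 0.47 without the 2 farthest mice. P4ha1 (r = 0.42), P4ha2 (0.08) and Plod2 (0.01) did not pass, with adjusted permutation p of 0.263 to 0.978. These correlations with the collagens were added after the data were seen.

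Ratios to these collagen counts were compared as a description. Per 1000 collagen counts there were 15.1 ± 3.52 counts of Lox in KO mice and 22.9 ± 5.85 in Tln2-null mice (SD, n = 8 each). For Loxl1 the ratio was 84.0 ± 13.3 in KO mice and 86.2 ± 8.43 in Tln2-null mice, within 1 SD. Loxl2 stood the other way from Lox, at 62.2 ± 15.5 in KO mice and 53.9 ± 10.3 in Tln2-null mice, and Loxl3 was at 16.6 ± 3.38 in KO mice and 18.7 ± 4.46 in Tln2-null mice, both within 1 SD. The ratio of P4ha2 was 132 ± 44.7 in KO mice and 92.8 ± 25.6 in Tln2-null mice. That of Plod1 was 286 ± 82.7 in KO mice and 208 ± 49.0 in Tln2-null mice. In CPM, P4ha2 averaged 68.1 in KO mice and 68.8 in Tln2-null mice, and Plod1 averaged 151 and 155. The higher KO ratios of these genes thus restate the lower collagen sum. In the fit with the log2 collagen sum as a covariate, Lox was at -0.60 ± 0.20 (unadjusted p = 0.00728, adjusted p = 0.9999) and Loxl1 at -0.18 ± 0.08 (unadjusted p = 0.0455, adjusted p = 0.9999). Loxl3 was at -0.25 ± 0.17 and Loxl2 at -0.08 ± 0.09 in that fit. The covariate was itself lower in KO mice, so this fit gives the difference at equal collagen RNA, not a separate effect.

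**Figure D4:**
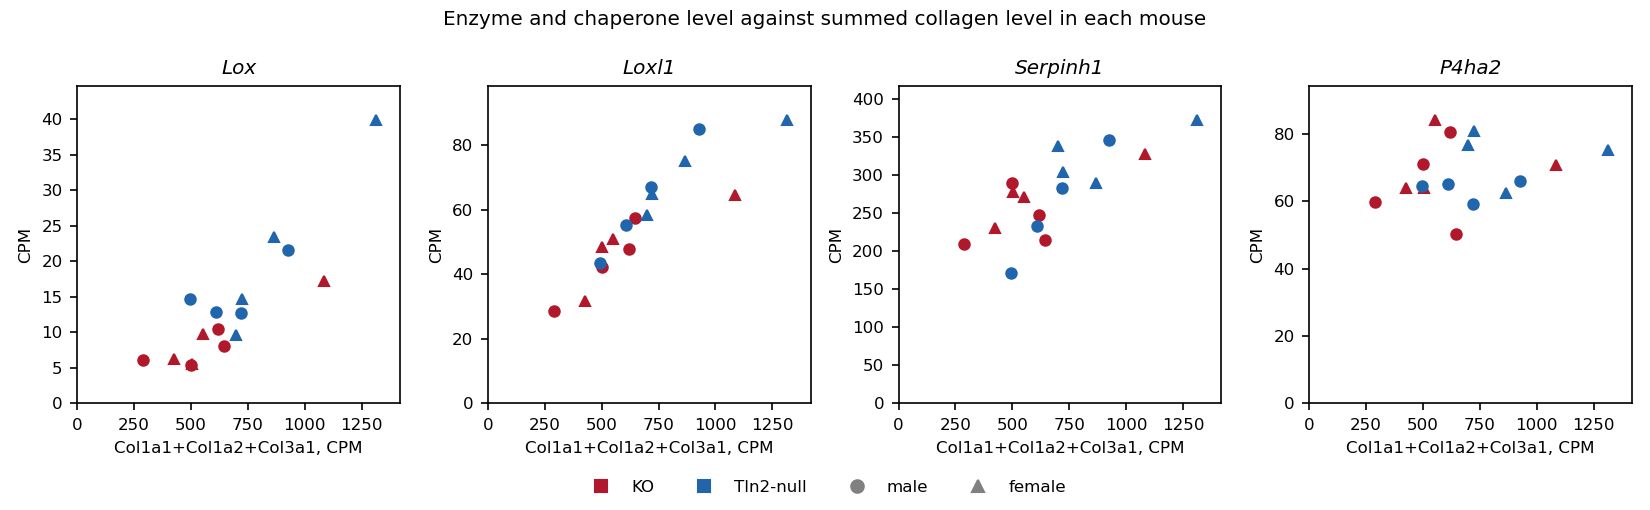
Level of Lox, Loxl1, Serpinh1 and P4ha2 (vertical axes, CPM) against the summed level of Col1a1, Col1a2 and Col3a1 (horizontal axis, CPM) in each mouse. KO mice are red and Tln2-null mice blue, circles males and triangles females; Loxl1 follows the collagen sum in both genotypes, Lox lies lower in KO mice at a given sum (15.1 against 22.9 counts per 1000 collagen counts), and P4ha2 does not follow it (r = 0.08).

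The 3 genes whose centred levels were most like each of the 10 were looked up among those of at least 1 mean CPM, 12847 for most genes. Lox was closest to Pmp22 (r = 0.95), Cyb561 (0.93) and Thbs3 (0.93). Loxl1 was closest to the collagen VI genes Col6a1 (r = 0.95) and Col6a2 (0.93) and to Tmem119 (0.93). Loxl2 was closest to Lcp2 (r = 0.94), Ifitm3 (0.92) and S100a10 (0.91), and Loxl3 to Gabra3 (0.96), Col8a2 (0.95) and Ptgis (0.95). Plod1 was closest to Mmrn2 (r = 0.93), Ehd2 (0.91) and Pdgfb (0.91), and Serpinh1 to Tubb6 (0.91), Cryba4 (0.88) and Rce1 (0.87). Plod2 was closest to Mib1 (r = 0.91), Hipk1 (0.91) and Mtmr10 (0.87). P4ha1 was closest to Wdr48 (r = 0.81), Pgam1 (0.80) and Mn1 (0.80), P4ha2 to Ggcx (0.90), Got1 (0.89) and Tpbgl (0.88), and P4ha3 to Fermt3 (0.87), Tspan14 (0.86) and C1qb (0.86). All are r over 16 mice, searched for the highest, and are given as a description.

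The other genes of the collagen pathway were described list by list, and differences between lists were not tested. The lists share genes, such as Col1a1, Col1a2, Dcn and Pcolce with the fibroblast markers and Postn and Cthrc1 with the activated fibroblast markers. Their counts are therefore not independent. All 9 fibrillar collagen and elastin genes had a negative log2 fold change (median -0.42), 5 at an unadjusted p under 0.05: Col11a1 at -1.69 ± 0.59, Col1a1 at -0.57 ± 0.21, Eln, the elastin gene, at -0.57 ± 0.25, Col1a2 at -0.43 ± 0.18 and Col5a1, chosen after its values were seen, at -0.37 ± 0.17. Of these, Col11a1 averaged 0.205 CPM in KO mice and 0.678 CPM in Tln2-null mice, near the limit that a count of 0 allows. The matrix partners were 11 listed genes of proteins known to bind lysyl oxidases or to guide fibril and elastic fibre assembly. All 11 had a negative log2 fold change (median -0.25), from -2.05 to -0.01, 3 at an unadjusted p under 0.05: Fbln1, fibulin 1 of elastic fibres, at -0.77 ± 0.19, Fmod, fibromodulin, at -2.05 ± 0.66 and Dcn, decorin, at -0.20 ± 0.09. Postn, periostin, was at -0.62 ± 0.33. No gene of these lists was called over all genes tested.

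Of the 14 other ER modification genes, 13 had a negative value but the median was -0.08, and P3h3, a prolyl 3-hydroxylase, was the 1 gene at an unadjusted p under 0.05 (-0.40 ± 0.10, adjusted p = 0.375). Crtap (-0.17 ± 0.09), Ppib (-0.12 ± 0.07) and P3h2 (-0.28 ± 0.17) were next by p. Of the 10 procollagen export genes, 5 had a negative and 5 a positive value (median 0.00), none at an unadjusted p under 0.05; Creb3l2 was at -0.17 ± 0.09, Sec23a at 0.08 ± 0.04, Mia2 at 0.12 ± 0.08 and Mia3, the export receptor TANGO1, at 0.08 ± 0.05.

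Of 10 propeptide processing genes 8 were tested, 6 with a negative value. Tll2, a tolloid-like protease, stood higher in KO mice (1.17 ± 0.30, unadjusted p = 0.00111, adjusted p = 0.375) and Adamts2, the procollagen N-proteinase, stood lower (-0.37 ± 0.17, unadjusted p = 0.0408). Counts of Tll2 were low, averaging 1.45 CPM in KO mice and 0.637 CPM in Tln2-null mice. The enhancer protein Pcolce was at -0.22 ± 0.12 and the C-proteinase Bmp1 at -0.15 ± 0.08. Of 7 genes of other crosslinking enzymes 4 were tested, none at an unadjusted p under 0.05: Loxl4, the remaining lysyl oxidase, at -0.26 ± 0.22, F13a1 at 0.09 ± 0.08, the transglutaminase Tgm2 at -0.03 ± 0.07 and Pxdn at 0.02 ± 0.09.

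**Figure D5:**
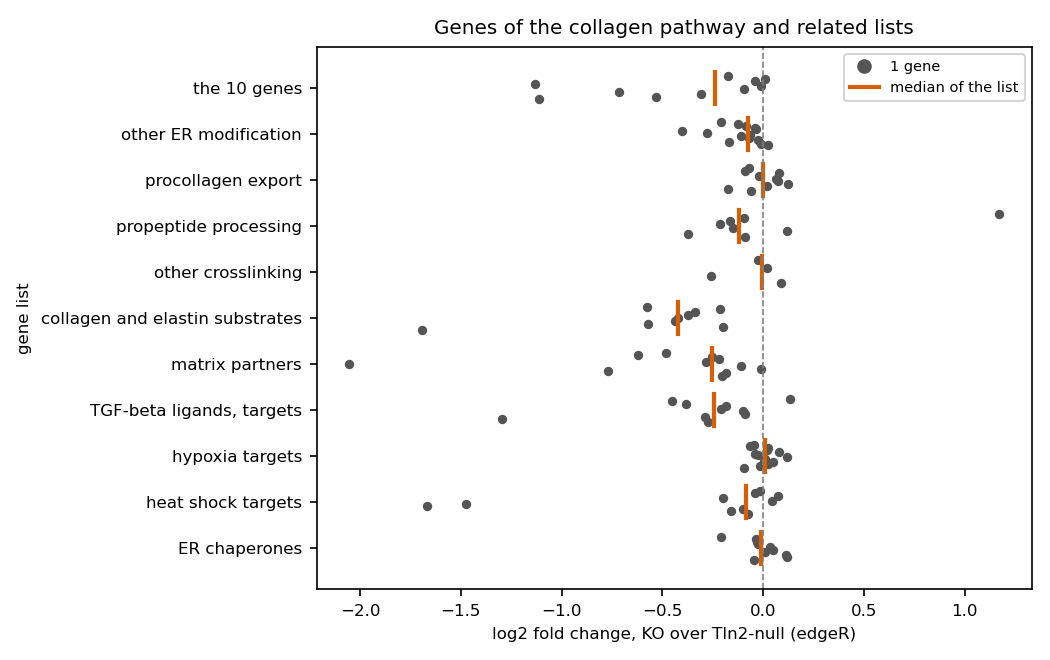
Log2 fold change of KO over Tln2-null for every tested gene of each list (points), with the list's median (orange bar). The medians of the substrates (-0.42), the matrix partners (-0.25), the TGF-beta list (-0.24) and the 10 genes (-0.24) lie below 0, and those of the export (0.00) and hypoxia (0.01) lists lie at 0.

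Lists of known inducers were described in the same way. Of 10 TGF-beta ligands and targets, a pathway known to raise Lox and collagen transcription, 9 had a negative log2 fold change (median -0.24), 4 at an unadjusted p under 0.05: Tgfb3 at -0.45 ± 0.14, Tgfb2 at -0.38 ± 0.13, Pmepa1 at -0.29 ± 0.10 and Cthrc1 at -1.29 ± 0.55. Counts of Cthrc1 were low, at 0.0593 to 1.77 CPM in KO mice and 0.0707 to 3.83 CPM in Tln2-null mice. Of 16 hypoxia targets 14 were tested, 6 negative and 8 positive (median 0.01), none at an unadjusted p under 0.05. Hk2 was at 0.12 ± 0.07, Pdk1 at 0.08 ± 0.06, Adm at -0.09 ± 0.11 and Pgk1 at 0.03 ± 0.05. Of 10 heat shock genes 8 were negative (median -0.09), and the 2 at an unadjusted p under 0.05, Hspa1a (-1.67 ± 0.67) and Hspa1b (-1.47 ± 0.60), are those with the single high value in Tln2-null replicate 5. Hspb1 was at -0.20 ± 0.13 and Dnajb1 at -0.16 ± 0.13. Of the 10 general ER chaperones 5 were negative and 5 positive (median -0.01), with Dnajb9 at 0.12 ± 0.06, Canx at 0.12 ± 0.06, Sdf2l1 at -0.21 ± 0.15 and Hsp90b1 at 0.05 ± 0.08.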

How the data were processed

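Total RNA of 16 left ventricles was made into directional libraries, per the labels' protocols. The authors deposited a table of whole counts per gene symbol and a normalized table, a signal equal to those counts divided by 1 size factor per library: after rescaling, 100.0 percent of its values were whole within 0.001, for the 16384 genes found by name in the count table, so the count test on recovered reads is the test on the counts. DRAGEN, DESeq2 and mm10 are listed in the submitters' processing notes. Their roles, the annotation and the use of strand are not stated in the sources used here.

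Replicates were numbered in record order within each genotype, and the labels give 1 library per mouse. No library repeated another. The test on counts was the quasi-likelihood test of edgeR 4.0.16 under R 4.3.3 (TMM scaling, filterByExpr, sex and genotype as terms; 13775 genes tested, Benjamini-Hochberg adjustment over all of them, threshold 0.05). CPM used TMM-scaled library sizes. Effects within sex came from 1 mean per genotype and sex. DESeq2 1.42.0 and limma 3.58.1 were alternatives, limma also on log2 of the deposited signal plus a pseudocount of 1 or 5. Exon lengths came from GENCODE M21. Correlations used log2(CPM + 0.5), with 100000 permutations within genotype and sex; the likeness search kept genes of at least 1 mean CPM. The fitting script was tested on simulated data. The limit of 3 counts covers counting error only.

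The 10 genes and the gene lists were chosen with earlier results of these data known. The text names all 10 genes, up to 4 genes of lowest p in each pathway list and the 3 genes most like each of the 10. Tln1 and Tln2 are named as the targeted genes. Col5a1, Tcf21, Ryr2, Pln, Abcc9, Rgs5, Cspg4, Dkk3, Nppa, Arntl and Htra2 were chosen after their values were seen. The 26 entries that read as dates were kept as separate entries.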

Additional observations from a re-analysis of the deposited data

Results flagged for a closer look

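Among 20 groups of 8 mice (10 genes, 2 genotypes), 5 had a highest mouse farther from the others than Dixon's test on CPM allows at 95%. For independent groups of normally distributed values, chance gives about 1 in 20 groups. CPM was not put on the log scale for this and the genes covary (Lox with P4ha3, r = 0.85). The count of 5 is therefore a description. The 5 groups belong to 3 genes and 2 mice. Lox was 17.3 CPM in KO replicate 2, against 5.40 to 10.4 CPM in the other KO mice, and 39.9 CPM in Tln2-null replicate 4, against 9.69 to 23.5 CPM in the other Tln2-null mice. P4ha3 was 1.26 CPM in KO replicate 2, against 0 to 0.462 CPM, and 2.56 CPM in Tln2-null replicate 4, against 0.233 to 0.722 CPM. Loxl2 was 45.1 CPM in KO replicate 2, against 27.6 to 35.6 CPM. Both mice are females, each with the highest summed collagen level of its genotype, 1085 CPM in KO replicate 2 and 1314 CPM in Tln2-null replicate 4. With Tln2-null replicate 4 left out Lox stood at -0.89, the value nearest 0 among the 16 fits that leave out 1 mouse.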

How the results depend on the processing

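None of the 10 genes was called in any setting tried, and Lox stayed negative with an unadjusted p under 0.05 in 28 of 28 settings (-1.31 to -0.60, smallest adjusted p 0.129). Loxl1 kept such a p in 27, Loxl3 in 26 and Loxl2 in 22 of 28. Over all genes edgeR called 0, and the count was 1 with no filter on low counts, 17 with DESeq2, 11 with limma-voom, 2 and 1 with limma at pseudocounts 1 and 5, 5 without KO replicate 8 and Tln2-null replicate 8 (the 2 libraries with high Arntl, 27.1 and 28.4 CPM, against at most 8.44), and 0 to 7 on leaving out 1 mouse, with 7 without KO replicate 8. Of the 10, 4 were lower at an unadjusted p under 0.05, 2 with collagen as covariate, 1 with the females that had Y-linked reads left out, and 3 to 5 on leaving out 1 mouse. In males this count was 3 (0 to 4), in females 4 (0 to 5), for the sex difference in effect 0 (0 to 1) and for male over female 3 (1 to 4). DESeq2 called 2 genes in females, where edgeR called 0, and 21 between the sexes, where edgeR called 12. DESeq2 gave no p for Hspa1a and Hspa1b, leaving 0 heat shock genes in place of 2. Without centring, 24 pairs of genes passed in place of 12. P4ha3 was removed by the stricter filter.

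Title number, the number that ends each library's title, averaged 10.9 (3 to 18) in KO mice and 7.5 (1 to 14) in Tln2-null mice. It is thus partly tied to genotype, and the sources used here do not say what it means. Signs near 0 turned. Plod1 was at 0.017 with title number, 0.080 with collagen as covariate and 0.039 with the females that had Y-linked reads left out; P4ha2 at 0.057, 0.0084 and 0.014 in the same fits, 0.044 with limma-voom and 0.053 without both replicates 8; P4ha1 at 0.0037 and Serpinh1 at 0.022 with collagen; Plod2 at -0.013 without both replicates 8 and, in females, -0.00025 with DESeq2. Leaving out 1 mouse gave -0.068 to 0.035 for P4ha2, -0.087 to 0.0060 for Plod1 and -0.013 to 0.070 for Plod2. In males it gave -0.15 to 0.052 for P4ha1, -0.074 to 0.14 for P4ha2, -0.036 to 0.15 for Plod2 and -0.26 to 0.066 for Serpinh1. In females it gave -1.61 to 0.27 for P4ha3, -0.11 to 0.093 for Plod1 and -0.043 to 0.088 for Plod2. For the male minus the female effect it gave -0.34 to 0.55 for Lox, -0.12 to 0.21 for Loxl1, -0.18 to 0.35 for Loxl3, -0.012 to 0.20 for P4ha2, -0.16 to 0.035 for Plod1, -0.065 to 0.14 for Plod2 and -0.029 to 0.30 for Serpinh1. The causes were not tested. No paired analysis was possible because replicate numbers follow record order and pair no mice. Depth limits P4ha3, at 0 to 40 counts per library.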
